A study of Mus musculus with 6 samples.

Results

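The matrix metalloproteases (MMPs), the ADAMTS proteases and their ADAMTS-like (ADAMTSL) relatives, and the tissue inhibitors of metalloproteases (TIMPs) were described in mouse tibialis anterior muscle on day 7 after cardiotoxin injury. The members were all genes of the deposited expression table whose mouse symbol is Mmp, Adamts, Adamtsl or Timp followed by a number and at most 1 letter. This rule found 51 of 52369 genes, of which 23 were MMPs, 19 ADAMTS proteases, 5 ADAMTSL genes and 4 TIMPs. Values are in FPKM, a read measure divided by gene length and library depth, so a scale per length on which genes can be set side by side.

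Both groups were C57BL/6 mice that received 50 µl of 10 µM cardiotoxin, a snake toxin that destroys muscle fibres and starts their regeneration, in the tibialis anterior at 5 weeks of age. The L7 group is labelled as Linc-smad7 overexpression, a gain of function of a long non-coding RNA, and the Control group as control, with 3 libraries each. The labels give both groups the same course of 6.25 µg of pcDNA3.1 plasmid with an in vivo transfection reagent, injected 3 times into the injured muscle, and the age of 6 weeks. They name neither the insert nor the cells that took up the plasmid, and no gene identifier for Linc-smad7, so its own level is not given here. Whether each library is a separate mouse is not stated, so p-values measure the spread between these samples. Y-linked reads, given below, were present in some libraries of each group and near 0 in others, so that each group held more than 1 animal. In whole muscle, fewer cells of a type and less RNA per cell cannot be told apart.

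MMPs are secreted or membrane-bound zinc proteases that cut collagens, elastin and other matrix proteins, and most are made as inactive precursors. ADAMTS proteases are secreted enzymes that process procollagen, cut large proteoglycans such as versican, or act on fibrillin microfibrils; the ADAMTSL proteins share their anchoring domains but have no protease domain. TIMPs block the active site of MMPs, and Timp3 also blocks several ADAMTS enzymes. In injured muscle these proteins come from infiltrating neutrophils and macrophages, fibroblasts and the regenerating fibres, and act while the damaged matrix is cleared and rebuilt.

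Reads in genes came to between 19420012 and 24663153 per library. L7 replicate 3 stood apart: its correlation with each other library over genes was 0.920 to 0.951, against 0.979 to 0.989 among the other 5, and its 10 most abundant genes held 14.1% of reads, against 6.57% to 8.398%. The summed FPKM of 10 muscle fibre markers was 31596, 34224 and 93694 in L7 libraries, against 20645, 29079 and 27397 in Control libraries. The sum of 10 neutrophil markers was 305, 160 and 52.8 FPKM in L7 libraries, against 273, 169 and 268 FPKM in Control libraries. The sum of 10 macrophage markers was 4686, 3776 and 2174 FPKM in L7 libraries, against 3449, 3117 and 4315 FPKM in Control libraries. L7 replicate 3 was the highest of the 6 libraries in all 10 fibre markers and the lowest in all 10 macrophage markers, in all 7 markers of regenerating muscle and in 5 of the 6 neutrophil markers above 1 FPKM. The remaining neutrophil marker, Retnlg, was highest in that library, at 2.87 FPKM. Of all genes that averaged at least 1 FPKM, 63.2% had their lowest and 17.6% their highest value in L7 replicate 3. The 8 fibroblast markers summed to 1499, 1481 and 1601 FPKM in L7 libraries, against 1880, 1627 and 1979 FPKM in Control libraries. Of these 8, 4 were higher and 4 lower in L7, and L7 replicate 3 was the highest of the 6 libraries in 4 and the lowest in 2. Ly6a, the most abundant of them in every library, was at 706, 657 and 513 FPKM in L7 libraries, against 1041, 783 and 1236 FPKM in Control libraries. The sum of 4 epidermis markers was 2.88, 2.71 and 3.23 FPKM in L7 libraries, against 10.1, 2.63 and 2.60 FPKM in Control libraries. Of these markers Krt5, Krt14 and Krt1 were at 0 in at least 1 library, and at 0.634, 3.53 and 1.04 FPKM in Control replicate 1. Krt10 was at 4.94 FPKM in Control replicate 1 and at 2.24 to 3.13 FPKM in the others. Reads of Y-linked genes were present in L7 replicate 1 and Control replicates 1 and 3, and at most 2 such reads were found in the other 3 libraries. The larger differences are therefore given also without L7 replicate 3, and some on a median of ratios scale, which divides each library by a factor set by its typical gene. That factor was 0.769 in L7 replicate 3 and 1.03 to 1.09 in the other 5. As deposited, the median log2 difference of all tested genes was -0.15, and after that scaling it was -0.0015.

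Promoter letters are shown for the members whose values the results return to, as stretches of up to 29 bases from RefSeq on GRCm38.p6. Promoters of 36 of the 51 members were matched, 39 promoters in all, each with 250 bases before and 50 bases after the start. The motifs were chosen after the expression values were known. The first set holds the AP-1 motif, the site of the Fos and Jun family, spelled TGAGTCA and searched on both strands, in the genes of the MMP cluster on chromosome 9. Capitals mark the motif, and the number is the position of its first base, with the base at the RefSeq start counted as 1 and no base numbered 0.
Mmp13, chr9:7272468-7272496, plus strand, -35: ccccaaagtggTGACTCAtcactatcatg
Mmp12, chr9:7347319-7347347, plus strand, -44: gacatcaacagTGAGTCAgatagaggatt
Mmp1b, chr9:7388102-7388130, minus strand, -93: gttacaaagccTGAGTCAtatagcctctg
Mmp3, chr9:7445765-7445793, plus strand, -46: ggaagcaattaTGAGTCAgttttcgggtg
Mmp1a, chr9:7464057-7464085, plus strand, -73: gttgtcaaccaTGAGTCAcatagcctctg
Mmp10, chr9:7502268-7502296, plus strand, -63: tagcacccatgTGAGTCAtgcttagtgac
Mmp7, chr9:7692016-7692044, plus strand, -63: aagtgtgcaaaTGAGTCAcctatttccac

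TGAGTCA lay in 1709 of 32851 promoters of this length (5.202%) and in 7 of the 39 member promoters (17.9%), all 7 of them in the chromosome 9 cluster. In Mmp13 the capitals read TGACTCA, the same motif on the other strand. The Mmp12 stretch lies inside the gene as annotated in GENCODE M21 (chr9:7344381-7369499), whose start differs from the RefSeq start. TATAAA, the core of the TATA box, lay in 13.6% of all promoters and in 12 of the 39 member promoters, 9 of them in that cluster. GGGCGG, the GC box bound by Sp1 and its relatives, lay in 35.7% of all promoters and in 22 of the 39 member promoters, none of them in that cluster. A match is a run of letters and not a measured site.

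The second set is from Timp1 and Adamts20, the only tested members whose L7 and Control values did not overlap. Both have the GC box, on either strand, and Timp1 also holds TGAGTAA, a variant of the AP-1 motif found in 2.68% of all promoters and in no other member promoter. Of 3 GC boxes of Adamts20 the pair on the gene's own strand is printed. In the GENCODE M21 annotation Adamts20 runs from 94270163 to 94465418 on chromosome 15, minus strand. Both its stretches thus lie inside the gene as annotated there, whose start differs from the RefSeq start. No motif overlaps another in the stretches shown.
Timp1, chrX:20870147-20870174, plus strand, GC box at -8: tatcctggggcCCGCCCctaggctttga
Timp1, chrX:20870181-20870209, plus strand, AP-1 variant at 27: cggtgggtggaTGAGTAAtgcgtccagga
Adamts20, chr15:94404476-94404503, minus strand, GC box at -142: cgcgcgcccgcGGGCGGggctgcgcggg
Adamts20, chr15:94404396-94404423, minus strand, GC box at -62: caggtcctgggGGGCGGgccctccgccg

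The levels fell steeply from a few leading members to genes with hardly a read. Mmp14 and Mmp2 ranked 116th and 140th of all genes by mean FPKM, and together they held 85.7% to 89.6% of the summed MMP FPKM in every library. Timp2 ranked 468th and Timp1 681st, and Adamts2, the leading ADAMTS protease, ranked 1415th with 35.7% to 43.4% of the summed ADAMTS FPKM. At the other end, Mmp1a and Mmp20 had no read in any library, and 9 further members averaged below 1 FPKM: Mmp1b, Mmp7, Mmp10, Mmp21, Mmp24, Adamts8, Adamts13, Adamts18 and Adamts19. Their means ran from 0.00704 FPKM in Mmp7, with 1 read in all, to 0.618 FPKM in Adamts8. The remaining 40 members averaged at least 1 FPKM and entered the test.

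**Figure D1:**
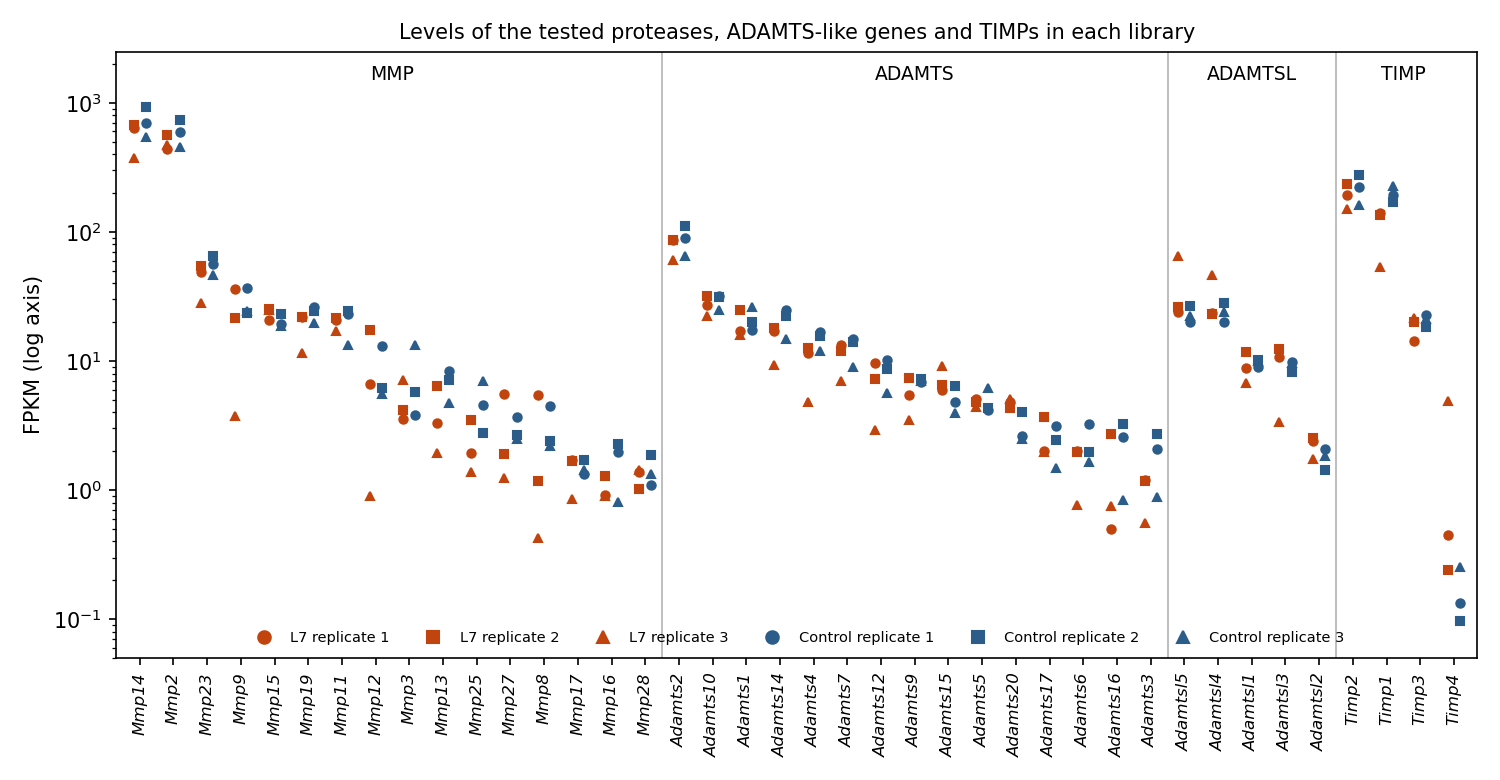
Each point is 1 library (red L7, left, and blue Control, right, with a symbol for each replicate), and the log axis gives FPKM for the 40 members that averaged at least 1 FPKM, by class and falling mean. Mmp14 and Mmp2 stand above the other MMPs, Timp2 and Timp1 above the other TIMPs, and red triangles, L7 replicate 3, are often at the lower edge.

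The question of the design is which genes differ between L7 and Control muscle. In limma, an empirical Bayes linear model fitted here to log2(FPKM + 1) of all 14788 genes that averaged at least 1 FPKM, 0 genes passed at a Benjamini-Hochberg adjusted p under 0.05 (0.0% of those tested), none of the members among them. At an unadjusted p under 0.05 there were 873, and limma voom on the recovered reads also called 0 at an adjusted p under 0.05. The smallest adjusted p of a member was 0.58. At an unadjusted p under 0.05, 1 member, Adamts20, was higher in L7 libraries, where 1.65% of all tested genes were. Timp1 and Mmp25 were the 2 members lower in L7 libraries at that threshold, where 4.25% of all tested genes were. For a set of 40 these counts are near the background. They moved with the libraries: 0 members had an unadjusted p under 0.05 without Control replicate 1, where 1.74% of all tested genes did, and 0 with sex as a covariate, where 2.56% did. Without L7 replicate 2 there were 8 of 40, where 8.31% of all tested genes had one. In the other tested members the smallest unadjusted p was 0.0746. Adamts20 alone had its 3 L7 values above every Control value, as did 5.49% of all tested genes, and Timp1 alone had them below every Control value, as did 13.7% of all tested genes, shares above that of the 40 members.

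As deposited, 9 of the 40 tested members were higher and 31 lower in L7 libraries, and of all tested genes 29.2% were higher and 70.8% lower. The median log2 difference was -0.22 for these members and -0.15 for all tested genes. After median of ratios scaling 16 were higher and 24 lower, at a median of -0.07. When L7 replicate 3 was also left out, 20 were higher and 19 lower, at a median of 0.01. L7 replicate 3 was the lowest of the 6 libraries in 24 of the 40, and 63.2% of all tested genes had their lowest value there. The members thus shared the direction of the whole table. By class, 2 MMPs were higher and 14 lower as deposited, and 4 and 12 after median of ratios scaling. On that scale without L7 replicate 3, 6 MMPs were higher and 10 lower. Of the ADAMTS proteases 3 were higher and 12 lower as deposited, 6 and 9 after that scaling, and 9 and 6 on that scale in the other 5 libraries. Of the TIMPs 1 was higher and 3 lower as deposited, and 2 and 2 after scaling. The 1 higher as deposited was Timp4, which passed the limit of 1 FPKM through L7 replicate 3 alone. After scaling Timp3 joined it, with a log2 difference of 0.0055. On that scale without L7 replicate 3, where Timp4 was not tested, 1 TIMP was higher and 2 were lower.

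**Figure D2:**
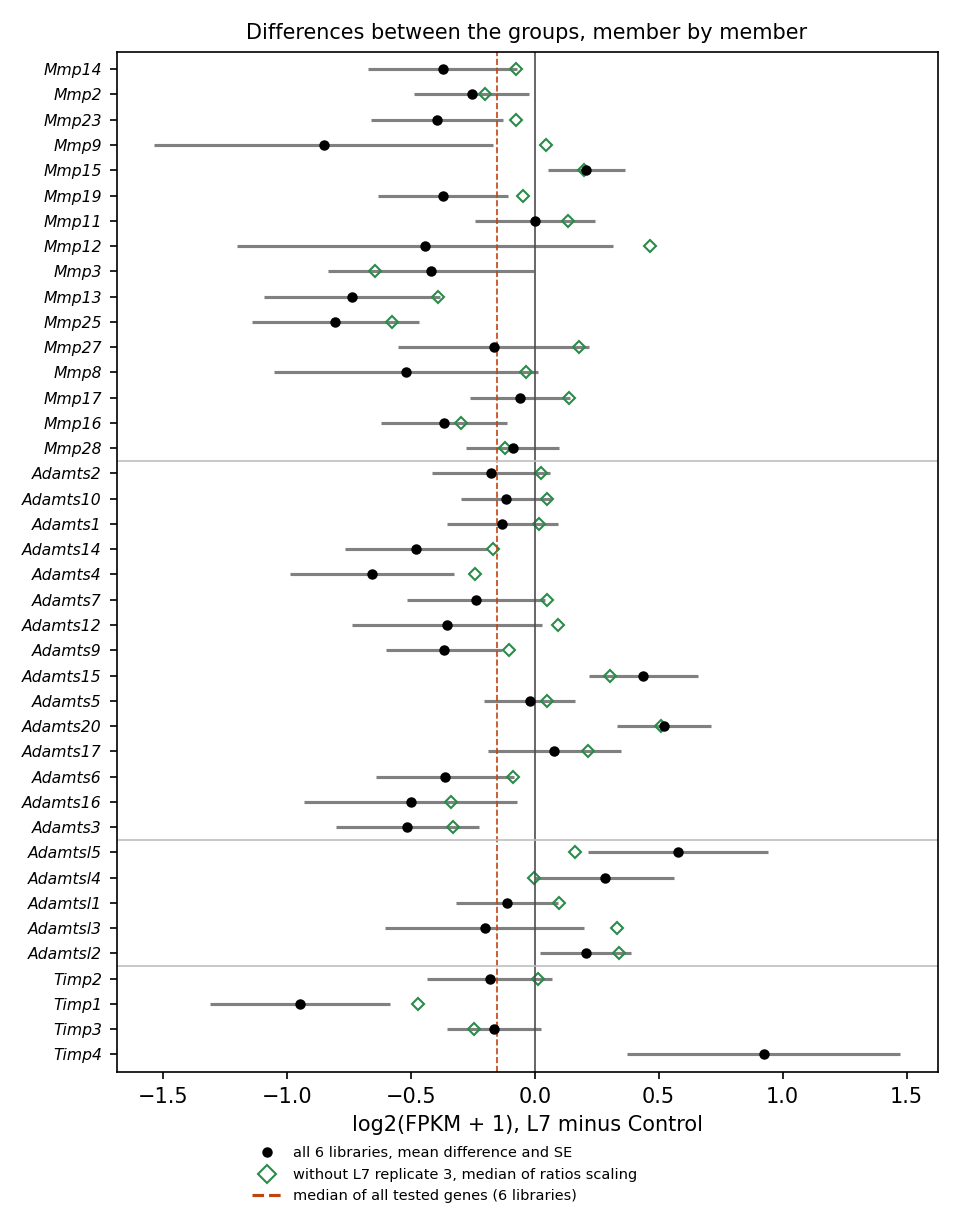
Black points give the L7 minus Control difference of mean log2(FPKM + 1) with its SE (3 libraries each), open diamonds the same with L7 replicate 3 left out and median of ratios scaling, and the dashed line the median of all tested genes, -0.15. Most black points lie left of 0, and Timp1 and Adamts20 keep their side in both versions; Timp4 has no diamond, since it is below 1 FPKM without that library.

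Timp1, the inhibitor of most secreted MMPs, was lower in all 3 L7 libraries than in any Control library. Timp1 was at 141, 135 and 54.0 FPKM in L7 libraries, against 192, 171 and 228 FPKM in Control libraries. The means were 109.8 ± 48.4 FPKM in L7 libraries and 197 ± 29.2 FPKM in Control libraries (SD, n = 3 each). L7 replicate 3 was the lowest by a wide margin. The log2 difference was -0.95 ± 0.36 (SE), with an unadjusted p of 0.0336 and an adjusted p of 0.58 in limma, and an exact two-sided permutation p of 0.1, the smallest that 3 libraries against 3 allow. It was -0.77 on the median of ratios scale and -0.50 without L7 replicate 3. Over 16 other settings its sign did not turn, its unadjusted p was under 0.05 in 12, and its adjusted p ran from 0.386 to 0.873 in limma. Among the libraries with Y-linked reads Timp1 was at 141 FPKM in L7 replicate 1, against 192 and 228 FPKM in Control replicates 1 and 3. Among those without, it was at 135 and 54.0 FPKM in L7 replicates 2 and 3, against 171 FPKM in Control replicate 2. In both sets the L7 libraries were below, but each has only 1 library on one side and gives no test. The read numbers behind Timp1 were large, 2675, 2398 and 981 in L7 libraries, against 3446, 2841 and 4830 in Control libraries. L7 replicate 3, the lowest in Timp1, also had the lowest macrophage and neutrophil marker sums, and their part in the Timp1 value was not tested. Timp1 (chrX:20870166-20874735, GENCODE M21, GRCm38) lies within an intron of Syn1 on the other strand, with no shared exon, and Syn1 was at 1.00, 0.761 and 0.496 FPKM in L7 libraries, against 0.888, 1.13 and 1.09 FPKM in Control libraries.

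In the other 3 inhibitors the L7 and Control values overlapped. Timp2, which blocks MMPs and also brings the Mmp2 precursor to Mmp14 at the cell surface, was the most abundant TIMP in 5 of the 6 libraries. Timp2 was at 194, 234 and 151 FPKM in L7 libraries, against 223, 278 and 162 FPKM in Control libraries. Timp3, which is bound to the matrix and also inhibits ADAMTS enzymes, lay well below both. Timp3 was at 14.3, 20.1 and 21.6 FPKM in L7 libraries, against 22.8, 18.4 and 21.2 FPKM in Control libraries. The log2 differences were -0.18 ± 0.25 (SE) for Timp2 and -0.16 ± 0.19 (SE) for Timp3, and without L7 replicate 3 they were -0.02 and -0.27. Timp4, an inhibitor known for its high level in heart, was low in all libraries but L7 replicate 3. Timp4 was at 0.448, 0.240 and 4.91 FPKM in L7 libraries, against 0.134, 0.0959 and 0.252 FPKM in Control libraries. It passed the limit of 1 FPKM through L7 replicate 3 alone, with 335 reads there, against 16 to 32 reads in the other L7 libraries and 6 to 20 in Control libraries, so its log2 difference of 0.92 ± 0.55 (SE) rests on 1 library. Exons of Timp3 and Timp4 overlap those of Syn3 and Syn2 on the other strand, and whether reads were counted by strand is not stated in the labels.

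**Figure D3:**
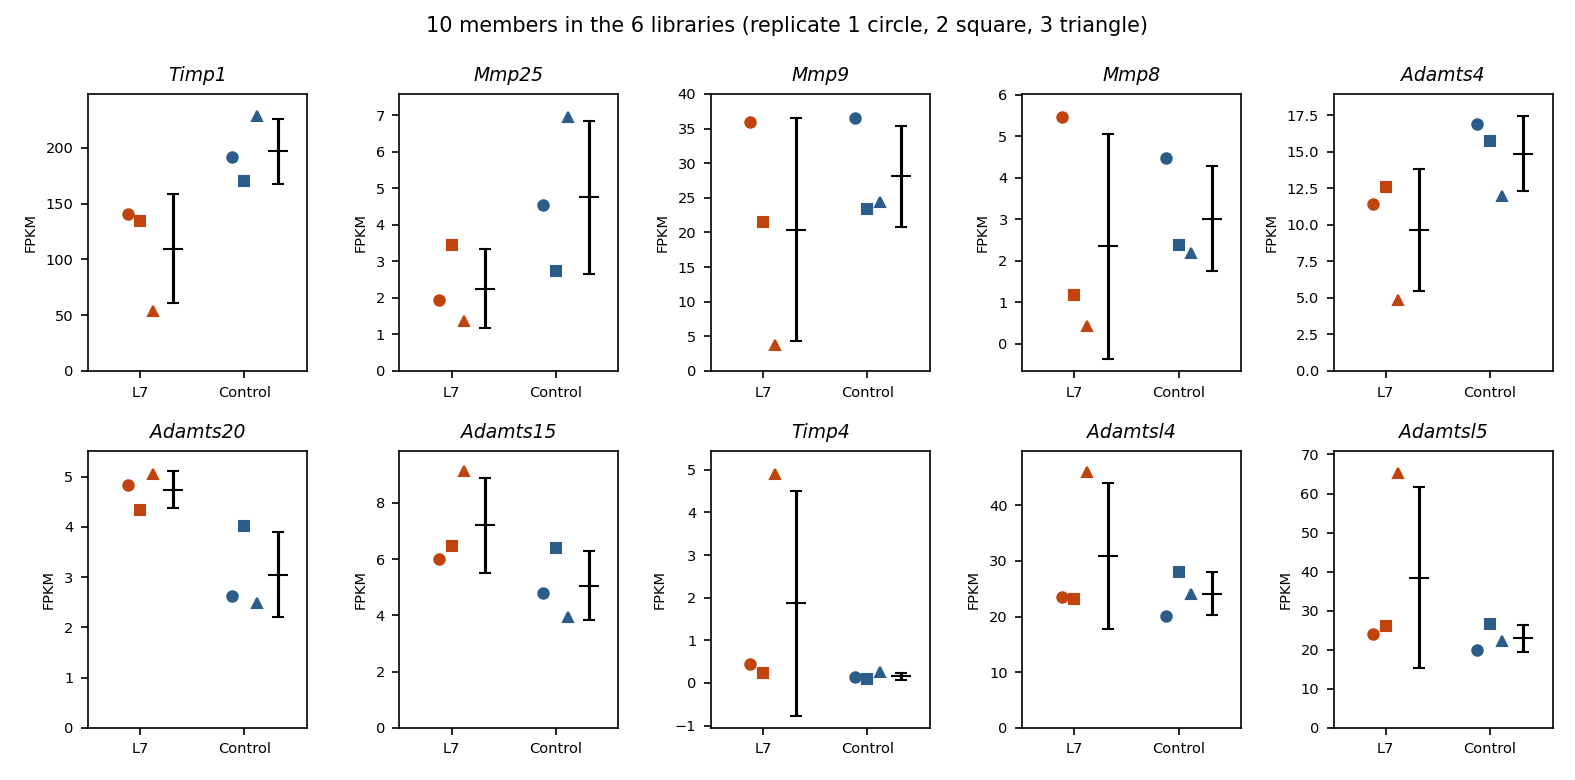
FPKM of 10 members in each library, L7 (red) left and Control (blue) right, with the mean and SD of the 3 libraries beside the points. Timp1 and Adamts20 are the 2 panels without overlap, and in Mmp9, Timp4, Adamtsl4 and Adamtsl5 the red triangle, L7 replicate 3, stands off from the other L7 libraries.

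Timp1 made up 40.2%, 34.6% and 23.3% of the summed TIMP FPKM in L7 libraries, against 43.8%, 36.5% and 55.4% in Control libraries. The TIMP sum was 349, 389.5 and 232 FPKM in L7 libraries, against 439, 467 and 412 FPKM in Control libraries. The MMP sum was 1255, 1419 and 953 FPKM in L7 libraries, against 1498, 1855 and 1159 FPKM in Control libraries. Summed TIMP over summed MMP FPKM gave a ratio of 0.278, 0.275 and 0.243 in L7 libraries, against 0.293, 0.252 and 0.355 in Control libraries. The groups overlapped in this ratio and in the MMP sum, and in the TIMP sum every L7 library lay below every Control library, while the sums without Timp1 overlapped. These sums compare mRNA levels and not amounts or activity of protein.

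**Figure D4:**
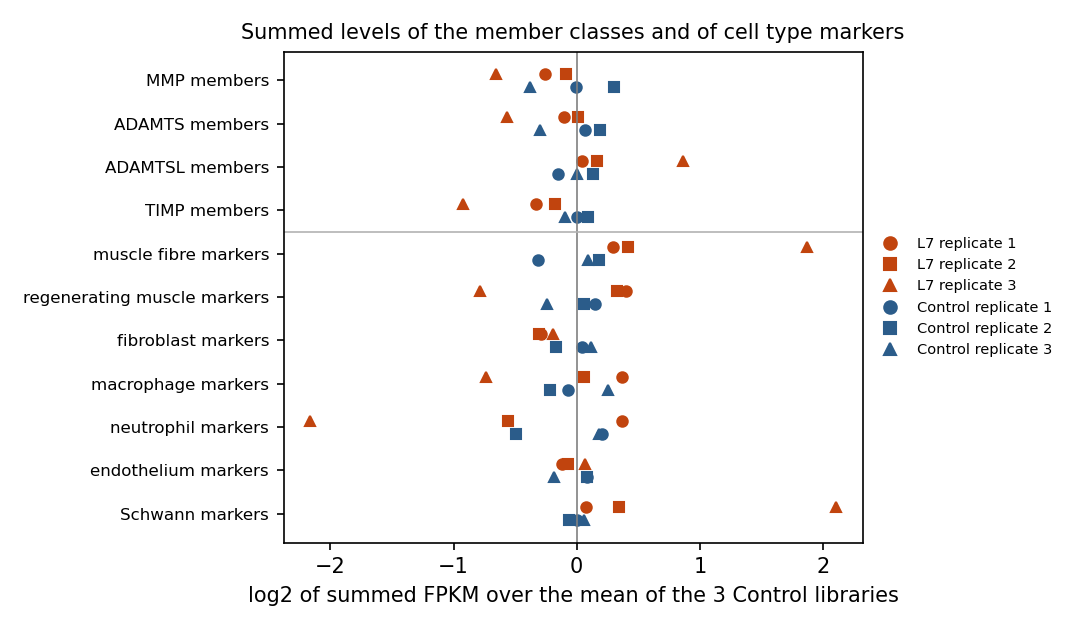
Each point is the log2 ratio of 1 library's summed FPKM to the mean of the 3 Control libraries, L7 in red and Control in blue, for the 4 member classes (above the line) and 7 marker lists (below it). L7 replicate 3, the red triangle, is at the low end for MMP, ADAMTS, TIMP, macrophage and neutrophil sums and at the high end for ADAMTSL, muscle fibre and Schwann sums. All sums are as deposited, without median of ratios scaling.

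The gelatinases are Mmp2, made mainly by fibroblasts, and Mmp9, carried by neutrophils and macrophages. Mmp2 was at 440.4, 562 and 476 FPKM in L7 libraries, against 599, 741 and 451 FPKM in Control libraries. Mmp9 was at 36.0, 21.5 and 3.75 FPKM in L7 libraries, against 36.5, 23.4 and 24.4 FPKM in Control libraries. L7 and Control values overlapped in both genes, and the log2 differences were -0.25 ± 0.23 (SE) for Mmp2 and -0.85 ± 0.68 (SE) for Mmp9. The lower Mmp9 mean in L7 came from L7 replicate 3, and without that library the log2 difference was 0.01. L7 replicate 3 is also the library with the lowest neutrophil and macrophage marker sums, whose part in the Mmp9 value was not tested.

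Membrane-type MMPs were led by Mmp14, a collagenase of the cell surface that activates Mmp2. Mmp14 was at 635, 674 and 376 FPKM in L7 libraries, against 694, 921 and 546 FPKM in Control libraries. Mmp15, another transmembrane MMP, was the tested MMP with the largest positive difference. Mmp15 was at 20.8, 25.3 and 25.0 FPKM in L7 libraries, against 19.4, 23.3 and 18.5 FPKM in Control libraries. The groups overlapped in both, with log2 differences of -0.37 ± 0.30 (SE) for Mmp14 and 0.21 ± 0.16 (SE) for Mmp15. Without L7 replicate 3 these were -0.11 and 0.17. Mmp16 was at 0.917, 1.28 and 0.901 FPKM in L7 libraries, against 1.99, 2.29 and 0.808 FPKM in Control libraries. Mmp16, also transmembrane, and Mmp17, a GPI-anchored one, were close to the limit of 1 FPKM. Mmp17 was at 1.71, 1.68 and 0.855 FPKM in L7 libraries, against 1.33, 1.70 and 1.42 FPKM in Control libraries. Mmp25, the other GPI-anchored MMP, known as leukolysin and made by neutrophils, had an unadjusted p of 0.0459 in limma and an adjusted p of 0.58. Mmp25 was at 1.94, 3.46 and 1.37 FPKM in L7 libraries, against 4.55, 2.75 and 6.95 FPKM in Control libraries. Control replicate 2 lay below L7 replicate 2, so the groups overlapped, and the exact two-sided permutation p was 0.2. The log2 difference of Mmp25 was -0.80 ± 0.34 (SE), -0.68 on the median of ratios scale and -0.60 without L7 replicate 3, and it kept an unadjusted p under 0.05 in 4 of 15 other settings. Mmp23 was at 49.0, 54.1 and 27.9 FPKM in L7 libraries, against 56.9, 65.3 and 46.2 FPKM in Control libraries. Mmp23, anchored by its N-terminal end, overlapped between the groups, with a log2 difference of -0.39 ± 0.27 (SE) that was -0.11 without L7 replicate 3.

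The collagenases cut fibrillar collagen; Mmp8 is that of neutrophils, and Mmp13 is the main interstitial collagenase of mice. Mmp13 was at 3.31, 6.44 and 1.92 FPKM in L7 libraries, against 8.31, 7.17 and 4.72 FPKM in Control libraries. Control replicate 3 lay below L7 replicate 2, and the log2 difference of Mmp13 was -0.74 ± 0.36 (SE), with an unadjusted p of 0.0746 in limma, and -0.42 without L7 replicate 3. Mmp8 was at 5.45, 1.17 and 0.428 FPKM in L7 libraries, against 4.48, 2.38 and 2.19 FPKM in Control libraries. L7 replicate 1 had the most Mmp8 and L7 replicate 3 the least, so that the L7 group spanned the Control group. Mmp1a and Mmp1b, the mouse counterparts of human interstitial collagenase, had 0 and 4 reads in all libraries together.

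Mmp3, stromelysin 1, which cuts many matrix proteins and other MMP precursors, was highest in Control replicate 3. Mmp3 was at 3.55, 4.18 and 7.18 FPKM in L7 libraries, against 3.80, 5.72 and 13.3 FPKM in Control libraries. Mmp11, stromelysin 3, overlapped between the groups. Mmp11 was at 20.9, 21.5 and 17.0 FPKM in L7 libraries, against 23.3, 24.3 and 13.4 FPKM in Control libraries. Mmp12, the macrophage elastase, had the largest standard error of the tested members. Mmp12 was at 6.64, 17.3 and 0.902 FPKM in L7 libraries, against 13.1, 6.17 and 5.57 FPKM in Control libraries. L7 replicate 2 was the highest and L7 replicate 3 the lowest of the 6, and the log2 difference of -0.44 ± 0.76 (SE) became 0.44 without L7 replicate 3. Its exons overlap Mmp1b on the other strand, which had only 4 reads. Mmp19 was at 21.8, 22.0 and 11.5 FPKM in L7 libraries, against 26.0, 24.2 and 19.8 FPKM in Control libraries. Mmp19, which acts on basement membrane proteins, and the little studied Mmp27 had overlapping groups. Mmp27 was at 5.55, 1.91 and 1.24 FPKM in L7 libraries, against 3.67, 2.68 and 2.51 FPKM in Control libraries. Mmp28 was at 1.39, 1.02 and 1.43 FPKM in L7 libraries, against 1.10, 1.88 and 1.32 FPKM in Control libraries. Mmp28, known as epilysin, was the other tested MMP and was near the limit.

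In all, 10 MMP genes lie side by side on chromosome 9 between 7272514 and 7699585, a span of 427 kb (GENCODE M21, GRCm38), in the order Mmp13, Mmp12, Mmp1b, Mmp3, Mmp1a, Mmp10, Mmp8, Mmp27, Mmp20 and Mmp7. Of these, 5 averaged below 1 FPKM, with at most 13 reads each over the 6 libraries, and 5 were tested: Mmp13, Mmp12, Mmp3, Mmp8 and Mmp27. All 5 were lower in the L7 mean, as deposited and on the median of ratios scale, with log2 differences of -0.74, -0.44, -0.42, -0.52 and -0.17 as deposited. None had an unadjusted p under 0.05 in limma, and Mmp12 and Mmp27 turned positive without L7 replicate 3, at 0.44 and 0.15. Mmp8 was then at -0.06 and Mmp3 at -0.67. The levels stand beside the AP-1 letters printed above as follows. Mmp13, Mmp12 and Mmp3 hold the motif and averaged 5.31 to 8.28 FPKM. Mmp8, Mmp27 and Mmp20 lack it in this window, and the first 2 averaged 2.68 and 2.93 FPKM while Mmp20 was at 0. Mmp1b, Mmp1a, Mmp10 and Mmp7 hold it and averaged below 0.1 FPKM.

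**Figure D5:**
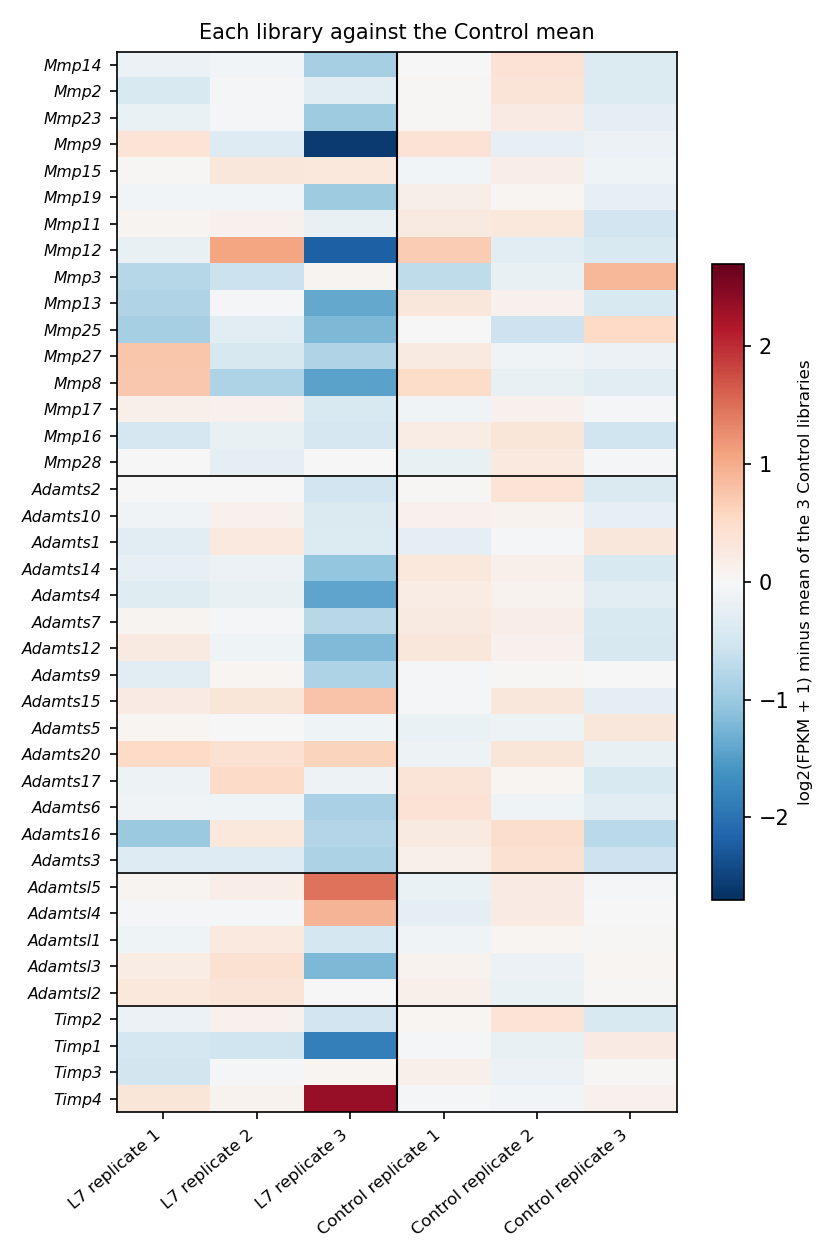
Colours give log2(FPKM + 1) of each library minus the mean of the 3 Control libraries for the 40 tested members, with L7 libraries left of the black line and Control libraries right of it. The L7 replicate 3 column holds the deepest blue (Mmp9, Mmp12, Timp1) and red (Timp4, Adamtsl5) cells, and Adamts20 is red in all 3 L7 libraries.

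The procollagen N-proteinases Adamts2, Adamts3 and Adamts14 remove the amino-terminal propeptide of fibrillar procollagens. Adamts2 was at 85.9, 86.5 and 60.4 FPKM in L7 libraries, against 88.9, 112 and 65.4 FPKM in Control libraries. Adamts14 was at 17.1, 17.9 and 9.36 FPKM in L7 libraries, against 24.9, 22.3 and 14.9 FPKM in Control libraries. Adamts3 was at 1.19, 1.18 and 0.552 FPKM in L7 libraries, against 2.09, 2.73 and 0.885 FPKM in Control libraries. In each of the 3 genes the groups overlapped and Control replicate 3 was the lowest Control library. Their log2 differences were -0.18 ± 0.24 (SE) for Adamts2, -0.48 ± 0.29 (SE) for Adamts14 and -0.51 ± 0.29 (SE) for Adamts3. Without L7 replicate 3 they were -0.0074, -0.20 and -0.35.

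Among the proteoglycanases, which cut versican and aggrecan, Adamts20 had the largest positive log2 difference of those tested. Adamts20 was at 4.84, 4.33 and 5.05 FPKM in L7 libraries, against 2.63, 4.02 and 2.49 FPKM in Control libraries. Control replicate 2 lay close to the L7 libraries, and the other Control libraries lay well below. The means were 4.74 ± 0.370 FPKM in L7 libraries and 3.05 ± 0.849 FPKM in Control libraries (SD, n = 3 each), a ratio of means of 1.56. The log2 difference was 0.52 ± 0.19 (SE), with an unadjusted p of 0.0276 and an adjusted p of 0.58 in limma, and an exact two-sided permutation p of 0.1, the smallest possible. It was 0.66 on the median of ratios scale and 0.48 without L7 replicate 3, and its unadjusted p was under 0.05 in 11 of 15 other settings. Among libraries with Y-linked reads Adamts20 was at 4.84 FPKM in L7 replicate 1, against 2.63 and 2.49 FPKM in Control replicates 1 and 3. Among those without, it was at 4.33 and 5.05 FPKM in L7 replicates 2 and 3, against 4.02 FPKM in Control replicate 2. Adamts20 is known in the mouse for the belted coat mutation, a defect of pigment cell survival in skin.

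The proteoglycanases Adamts5 and Adamts15 cut versican during myoblast fusion in cultured mouse cells. Adamts5 was at 5.10, 4.77 and 4.42 FPKM in L7 libraries, against 4.16, 4.34 and 6.23 FPKM in Control libraries. Adamts15 was at 6.00, 6.47 and 9.13 FPKM in L7 libraries, against 4.81, 6.38 and 3.96 FPKM in Control libraries. Adamts15 overlapped between the groups through Control replicate 2, and its log2 difference was 0.44 ± 0.22 (SE), below that of Adamts20 alone among the tested ADAMTS proteases, and 0.28 without L7 replicate 3. Adamts1 was at 16.9, 25.0 and 15.9 FPKM in L7 libraries, against 17.4, 19.95 and 26.0 FPKM in Control libraries. Adamts4 was at 11.4, 12.6 and 4.85 FPKM in L7 libraries, against 16.9, 15.7 and 11.96 FPKM in Control libraries. Adamts9 was at 5.48, 7.33 and 3.51 FPKM in L7 libraries, against 6.90, 7.22 and 7.04 FPKM in Control libraries. Adamts1, Adamts4 and Adamts9 each had their lowest value in L7 replicate 3. For Adamts4 the log2 difference was -0.66 ± 0.33 (SE), with an unadjusted p of 0.0845 in limma, and it was -0.27 without L7 replicate 3. Adamts8, below 1 FPKM on average, was at 0.250, 0.415 and 2.07 FPKM in L7 libraries, against 0.292, 0.414 and 0.270 FPKM in Control libraries, so that only L7 replicate 3 had it above 1 FPKM.

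Adamts7 and Adamts12 cut the cartilage oligomeric matrix protein, and their groups overlapped. Adamts7 was at 13.2, 12.03 and 6.97 FPKM in L7 libraries, against 14.9, 14.1 and 9.05 FPKM in Control libraries. Adamts12 was at 9.63, 7.29 and 2.91 FPKM in L7 libraries, against 10.2, 8.68 and 5.67 FPKM in Control libraries. Adamts10, Adamts6 and Adamts17 are linked to fibrillin microfibrils, and Adamts10 was the most abundant of these 3. Adamts10 was at 27.4, 31.8 and 22.1 FPKM in L7 libraries, against 31.8, 31.3 and 24.9 FPKM in Control libraries. Adamts6 was at 1.99, 1.96 and 0.763 FPKM in L7 libraries, against 3.23, 1.98 and 1.64 FPKM in Control libraries. Adamts17 was at 1.99, 3.68 and 1.97 FPKM in L7 libraries, against 3.16, 2.42 and 1.48 FPKM in Control libraries. Adamts16 was uneven within both groups. Adamts16 was at 0.503, 2.703 and 0.759 FPKM in L7 libraries, against 2.58, 3.23 and 0.831 FPKM in Control libraries. The log2 differences of these 6 members lay between -0.50 and 0.08, and between -0.36 and 0.19 without L7 replicate 3, and the groups overlapped in each. Adamts13, which cuts von Willebrand factor and is made mainly in liver, had 25 reads in all 6 libraries together.

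The ADAMTSL genes were the class with more members higher than lower in L7, 3 against 2 as deposited and 4 against 1 after median of ratios scaling. The leading pair, Adamtsl5 and Adamtsl4, both of which bind fibrillin, were raised in L7 replicate 3 and not in the other L7 libraries. Adamtsl5 was at 24.1, 26.0 and 65.1 FPKM in L7 libraries, against 19.9, 26.7 and 22.3 FPKM in Control libraries. Adamtsl4 was at 23.5, 23.1 and 46.0 FPKM in L7 libraries, against 20.2, 28.0 and 24.1 FPKM in Control libraries. Without L7 replicate 3 their log2 differences were 0.13 and -0.03. Adamtsl1 was at 8.86, 11.8 and 6.71 FPKM in L7 libraries, against 9.005, 10.1 and 10.0 FPKM in Control libraries. Adamtsl3 was at 10.7, 12.5 and 3.40 FPKM in L7 libraries, against 9.85, 8.16 and 9.63 FPKM in Control libraries. Adamtsl3 showed the reverse, with its 2 highest values in L7 replicates 1 and 2 and its lowest in L7 replicate 3, and its log2 difference of -0.20 ± 0.40 (SE) became 0.30 without that library. Adamtsl2 was at 2.39, 2.53 and 1.73 FPKM in L7 libraries, against 2.07, 1.44 and 1.84 FPKM in Control libraries. In Adamtsl2, mutated in human geleophysic dysplasia, Control replicate 1 lay above L7 replicate 3, and the log2 difference was 0.21 ± 0.18 (SE), and 0.32 without L7 replicate 3. The ADAMTSL sum was 69.6, 75.8 and 123 FPKM in L7 libraries, against 61.0, 74.3 and 67.9 FPKM in Control libraries, and the ADAMTS sum was 209, 227 and 152 FPKM in L7 libraries, against 236, 257 and 183 FPKM in Control libraries. As deposited, L7 replicate 3 thus held the highest ADAMTSL sum and the lowest ADAMTS, MMP and TIMP sums of the 6 libraries. These sums were not divided by the median of ratios factor, which was 0.769 in L7 replicate 3. With that division its ADAMTSL sum stays the highest and its TIMP sum the lowest, but its ADAMTS and MMP sums are not the lowest. The part of its muscle fibre share in these sums was not tested.

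In the authors' deposited table of their own comparison, 2 of the 49 members with a value had a p under 0.05, and both had 1 as adjusted p. There, in the authors' deposited table, Adamts20 had a log2 fold change of 0.84 (L7 over Control) with an unadjusted p of 0.00858, and Timp1 had -0.73 with an unadjusted p of 0.0175. The authors marked these 2 members, and no other member, as significant, although neither passed at an adjusted p under 0.05. Over the 31690 genes of that table, 0.382% were higher in L7 and 0.751% lower at an unadjusted p under 0.05, and 0.0284% passed at an adjusted p under 0.05. The 2 analyses rest on the same libraries.

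Other genes of matrix turnover were counted beside the members. Of 58 listed genes, which cover the plasminogen system, cathepsins, ADAM proteases, procollagen processing, MMP activation and uptake, and substrates, 47 were tested. Of these, 7 were higher and 40 lower in L7 libraries, with a median log2 difference of -0.30 where that of all genes was -0.15, and after median of ratios scaling 18 were higher and 29 lower. No gene of the list passed at an adjusted p under 0.05 in limma. At an unadjusted p under 0.05 there was 1 gene, Eln, higher in L7, where 1.65% of all tested genes were, and 0 lower, where 4.25% were. Eln encodes elastin, a substrate of Mmp12. Eln was at 150, 164 and 125 FPKM in L7 libraries, against 104, 78.9 and 102 FPKM in Control libraries. All 3 L7 libraries lay above all 3 Control libraries, and the log2 difference was 0.62 ± 0.18 (SE), with an unadjusted p of 0.00963 and an adjusted p of 0.58 in limma. After median of ratios scaling and with L7 replicate 3 left out it was 0.76. Papln was the other gene of the list with L7 above Control, as were 5.49% of all tested genes. Plaur, the receptor of urokinase, was the gene with L7 below Control, as were 13.7%. Plaur was at 38.1, 37.7 and 12.97 FPKM in L7 libraries, against 53.3, 41.6 and 45.7 FPKM in Control libraries. Plaur is named here after its values were seen.

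All 5 tested genes of the plasminogen system, which activates several MMP precursors, were lower in the L7 mean. Among them Serpine2, a serine protease inhibitor, was at 36.5, 35.9 and 40.8 FPKM in L7 libraries, against 47.2, 43.2 and 36.1 FPKM in Control libraries, and the groups overlapped. All 7 tested genes of the cathepsin group, which includes the inhibitor Cst3, were lower in the L7 mean. The most abundant were the lysosomal protease Ctss, with a log2 difference of -0.52 ± 0.40 (SE), and its inhibitor Cst3, with -0.07 ± 0.20 (SE). Of 8 ADAM proteases 7 were lower, and the 2 most abundant, Adam8 of leukocytes and Adam12 of regenerating muscle, had log2 differences of -0.82 ± 0.52 (SE) and -0.73 ± 0.46 (SE). After median of ratios scaling and with L7 replicate 3 left out, the values were -0.04 for Ctss, -0.02 for Cst3, -0.14 for Adam8 and -0.22 for Adam12.

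Of the 4 tested procollagen processing genes all were lower in the L7 mean. Pcolce, the enhancer of the C-proteinase, and Bmp1, the C-proteinase itself, had log2 differences of -0.03 ± 0.16 (SE) and -0.32 ± 0.24 (SE). In the group of MMP activation, inhibition and uptake 1 of 7 was higher. Lrp1, the uptake receptor for MMP and TIMP complexes, had a log2 difference of -0.27 ± 0.36 (SE), and Bsg, an inducer of MMPs, had 0.03 ± 0.18 (SE). Among the substrates 4 of 14 were higher, with -0.06 ± 0.35 (SE) for Col1a1 and -0.13 ± 0.29 (SE) for Col3a1, the main fibrillar collagens of this tissue. Pxdn, a matrix peroxidase, and Papln, which shares domains with ADAMTS proteins, had -0.30 ± 0.31 (SE) and 0.72 ± 0.33 (SE), and Papln passed the limit of 1 FPKM through L7 replicate 3 alone. After median of ratios scaling some directions turned. Then 1 of 5 plasminogen system genes, 2 of 7 genes of the cathepsin group, 2 of 8 ADAM proteases and 2 of 4 procollagen processing genes were higher in L7. With L7 replicate 3 also removed, Lrp1 was at 0.20, Bsg at -0.06, Pcolce at 0.07, Bmp1 at -0.12, Col1a1 at 0.17, Col3a1 at -0.04 and Pxdn at -0.04, so that Lrp1, Bsg, Pcolce and Col1a1 changed sign.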

How the data were processed

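RNA from 6 tibialis anterior samples, 3 L7 and 3 Control, was selected with poly-T beads and made into libraries with a NEBNext Ultra RNA kit, per the labels' protocols. Bowtie2 2.2.3, TopHat2 2.0.12, HISAT2 2.0.4, DESeq 1.12.0 and the build mm10 are named, with no role, per the submitters' processing notes. For the counting program, annotation and strand setting, none is given in the sources used here. The authors deposited FPKM per gene and library, not counts. Their comparison table, also deposited, holds mean normalised read signal per group, a log2 fold change and p-values.

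Symbols and positions came from GENCODE M21, which gave 51633 of 52369 IDs a symbol; promoters came from RefSeq. Groups were compared in limma 3.58.1 under R 4.3.3, with a trend, on log2(FPKM + 1) of genes averaging 1 FPKM or more, two-sided, with Benjamini-Hochberg adjustment over 14788 genes, so fold changes of low genes are understated. The fit was tested on simulated data with known changes. The simulation held no outlying library such as L7 replicate 3, so it does not bear on the effect of that library. Single members also got exact permutation tests. Reads per gene were recovered from FPKM and the deposited group means: 152096 of 152096 values came out whole within 0.05 reads. They gave the depth, 19420012 to 24663153 reads in genes, and a limma voom alternative. Sex, from Y-linked reads, was a covariate in another. Alternatives were pseudocount, filter, scaling, array weights, a replicate block and leaving out each library.

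Every member is named; those averaging 1 FPKM or more have values in each library. From the other matrix genes, those at an unadjusted p under 0.05 and the 2 of highest mean FPKM per group are named, except where a gene is not reported here. Members, lists and tests were chosen with earlier results of these data known. The deposited enrichment tables were not used.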

Additional observations from a re-analysis of the deposited data

How the results depend on the processing

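No member was called at an adjusted p under 0.05 in limma, as reported or under any of 16 alternatives; the smallest adjusted p of a member among them was 0.386. Over all genes, the 0 calls became 3 with array weights and 1 with median of ratios scaling without L7 replicate 3, and 0 to 1 when 1 library was left out, the 1 without L7 replicate 1. The 3 members at an unadjusted p under 0.05 became 1 of 26 among genes averaging 5 FPKM or more, where 6.00% of all genes had one. Adamts20 and Mmp25, which averaged 3.89 and 3.50 FPKM, do not enter that filter. The count was 0 with sex as a covariate (2.56% of all genes) and 5 with the replicate block (7.97% of all genes there, against 5.90% as reported). It ran from 0 (without Control replicate 1, 1.74% of all genes) to 8 (without L7 replicate 2, 8.31%) when 1 library was left out. The 2 members whose groups did not overlap became 1 of 26 among genes averaging 5 FPKM or more, where 21.6% of all genes did not overlap. Adamts20 is again below that filter. With median of ratios scaling without L7 replicate 3 they became 5 of 39, where the share of all genes was 24.4%. When 1 library was left out, the count ran from 2 (without Control replicate 1) to 16 (without Control replicate 3). It was 4, 6, 7 and 10 without L7 replicate 3, Control replicate 2, L7 replicate 1 and L7 replicate 2. Over all genes that share was 19.2% as reported, 22.4% without Control replicate 1, 36.0% without Control replicate 3, and 24.9%, 31.3%, 35.9% and 29.9% in the other 4, in the same order. The member median relative to that of all genes, -0.07, ran from -0.21 without Control replicate 3 to 0.0135 without L7 replicate 3, and to 0.0175 when median of ratios scaling was added. Between 0 and 14 members changed sign in an alternative, 7 of them with median of ratios scaling. Same-numbered L7 and Control libraries had correlations of their deviations of 0.32, -0.07 and 0.09, so the numbers were not taken as pairs; not every library correlated best with its own number. With that block, Adamts3, Adamts4, Adamts14, Adamts20 and Mmp13 had an unadjusted p under 0.05. Members with few reads, such as Mmp8 with 844 over the 6 libraries, carry more counting error than Mmp2 with 100185.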
